A study of Mus musculus with 4 samples.

Results

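Retinoic acid synthesis, binding and breakdown were followed through 9 genes, Adh7, Aldh1a1, Aldh1a2, Aldh1a3, Crabp1, Crabp2, Rarb, Cyp26a1 and Cyp26b1, each matched by its symbol among the 32287 features of the count files. Single-cell libraries (10x Genomics, 3′ end) were made from the penises of male mouse embryos at embryonic day 16.5, 2 from control embryos (DTA-) and 2 from embryos in which the Nr5a1-Cre lineage had been ablated (DTA+). All embryos carried 1 Rosa-LSL-DTA allele, a diphtheria toxin gene that stays silent until Cre removes its stop cassette, and the DTA- embryos had no Cre. The DTA+ embryos also carried Nr5a1-Cre Tg/+, a transgene that marks hindlimb-derived cells that enter the fetal penis. The study's methods add a Rosa-LSL-tdTomato reporter allele for the ablated mice, and tdTomato had 0 UMIs in both DTA- libraries against 3579 and 3140 in the DTA+ libraries, so reporter transcripts were still present after ablation. The methods also describe leaky reporter transcripts at a low level in most cells, so these UMIs do not measure surviving lineage cells. UMIs are unique molecular identifiers, each marking 1 captured mRNA molecule. Nr5a1-Cre also acts in the testes and adrenals, so a local effect of the lost cells and a change in circulating hormones cannot be told apart in these groups. The ablation itself removes cells. Within a population, a loss of cells that carried a gene and a change in the remaining cells therefore cannot be told apart either. Nothing in the sources used here says whether 1 library came from 1 penis, so p-values measure the spread between libraries.

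Retinoic acid is made from vitamin A in sequential oxidations, from retinol to retinal and from retinal to the acid. Adh7 encodes an alcohol dehydrogenase that can carry out the first oxidation, and Aldh1a1, Aldh1a2 and Aldh1a3 encode the retinaldehyde dehydrogenases of the last one. The cellular retinoic acid binding proteins Crabp1 and Crabp2 hold the acid in the cytoplasm, with Crabp2 known for delivering it to nuclear receptors. Rarb is one of these receptors and is itself a classic retinoic acid target, and Cyp26a1 and Cyp26b1 are the cytochrome P450 enzymes that break the acid down. In embryonic limbs and genitalia, opposing domains of synthesis and breakdown are known to set where retinoic acid acts.

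The genes lie on 6 chromosomes of GRCm38 (GENCODE annotation), Adh7 at chr3:138217760-138233382 and Crabp2 at chr3:87948666-87953376 on the plus strand, Aldh1a2 at chr9:71215789-71296243 and Crabp1 at chr9:54764748-54773110 on the plus strand, Aldh1a1 at chr19:20492715-20643465 and Cyp26a1 at chr19:37697798-37701536 on the plus strand, Aldh1a3 at chr7:66390890-66427517 on the minus strand, Rarb at chr14:16430839-16819156 on the minus strand and Cyp26b1 at chr6:84571414-84593908 on the minus strand. An antisense gene overlaps 1 exon of Adh7, and Top2b overlaps 7 exons and Gm48162 1 exon of Rarb, all on the opposite strand, which a strand-aware 3′ library can separate. Promoter windows of 300 bases, 250 before and 50 after the RefSeq start (GRCm38.p6), were at hand for 7 of the 9 genes. They were searched on both strands for direct repeats of the half-sites AGGTCA, or its variants AGTTCA, also GGGTCA, and further GGTTCA, the arrangement that retinoic acid receptors bind, with 1, 2 or 5 bases between. Repeats with 5 bases between were in 32 of 32851 windows, 0.0974%, and Rarb and Cyp26a1 were the members among them. Repeats with 1 base between were in 0.222% of windows and those with 2 between in 0.268%, none of them a member's. The 150 bases before the start of both are printed from 5′ to 3′ because they carry the repeat, which is in capitals and on the other strand in Cyp26a1. The Rarb stretch is chr14:16575477-16575626 on the minus strand and lies inside the annotated gene, with its repeat 53 to 37 bases before the RefSeq start; 3′ counts do not tell which start was used. The Cyp26a1 stretch is chr19:37697658-37697807 on the plus strand, with its repeat 32 to 16 bases before the start.
Rarb: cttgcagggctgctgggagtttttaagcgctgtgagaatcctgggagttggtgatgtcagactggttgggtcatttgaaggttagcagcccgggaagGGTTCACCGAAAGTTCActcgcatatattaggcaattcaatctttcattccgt
Cyp26a1: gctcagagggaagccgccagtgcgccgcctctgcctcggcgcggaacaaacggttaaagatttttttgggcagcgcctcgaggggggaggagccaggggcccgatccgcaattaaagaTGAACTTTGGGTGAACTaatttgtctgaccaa

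The libraries held between 11343 and 12580 cells and between 50779551 and 73577028 UMIs, and 31132 of 47040 cells passed the filters on depth, mitochondrial and haemoglobin transcripts. DTA- replicate 1 stood apart, with the most UMIs, 21.4% of cells over the upper UMI limit (against 9.98% to 11.2% in the others) and 52.2% of cells kept (67.8% to 77.7%). Pairs of libraries shared 31 to 48 cell barcodes, of which 12 to 21 were in kept cells. Clustering without any retinoid gene gave 27 clusters in 23 populations, 15 of them mesenchymal. Names such as periurethra or distal glans stand for marker profiles (periurethra-like, distal glans-like). Clusters that did not meet the naming rule of any class are called by their 2 leading genes. UMIs were summed per sample and population, and levels are given as CPM, a gene's UMIs divided by all UMIs of that population and scaled to 1000000, in the order DTA- replicate 1, DTA- replicate 2, DTA+ replicate 1 and DTA+ replicate 2. A population was tested where each of its samples held 20 or more cells, which left 14 mesenchymal and 7 others, with 1 mesenchymal population and the smooth muscle (19 cells in DTA+ replicate 2) left untested. A gene is called where edgeR's quasi-likelihood test gave a Benjamini-Hochberg adjusted p under 0.05.

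**Figure D1:**
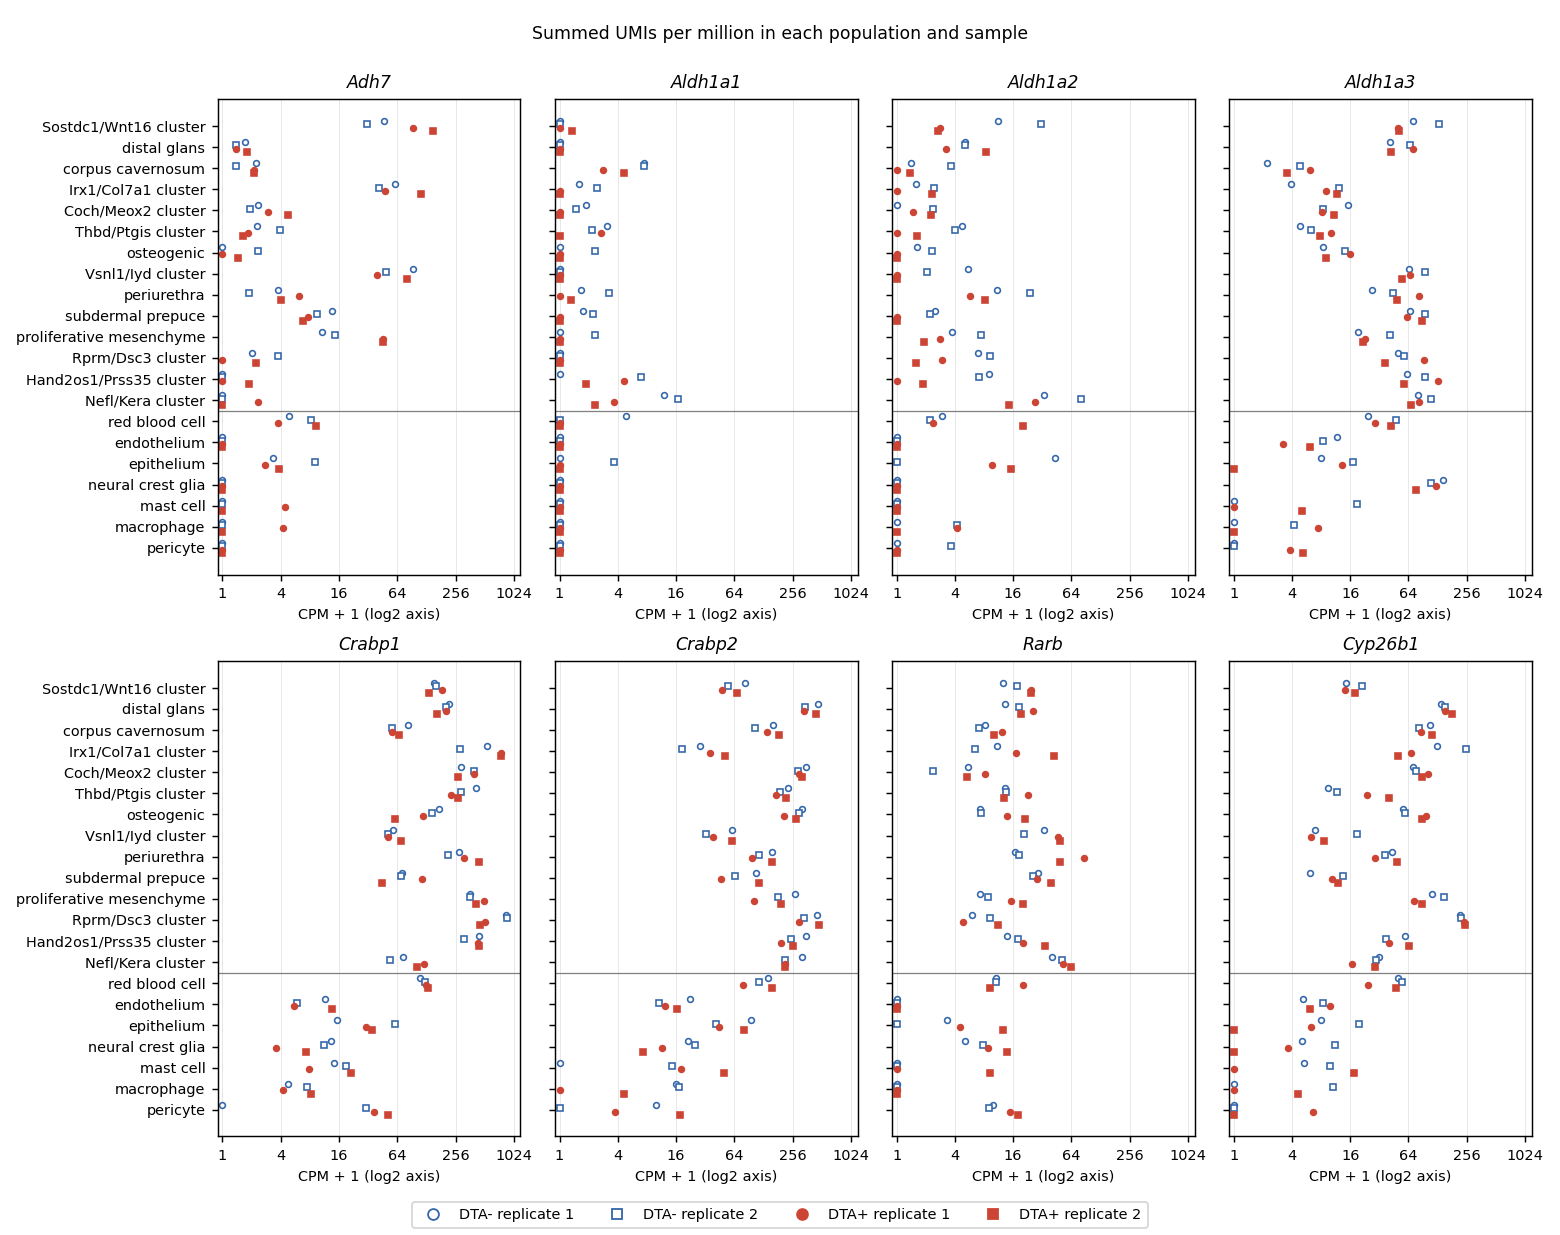
Summed UMIs (CPM + 1, log2 axis) of 8 genes in 14 mesenchymal populations (above the grey line) and 7 others (below it), with DTA- samples as open and DTA+ samples as filled symbols, circles for replicate 1 and squares for replicate 2. By the mean of all samples, Adh7 is highest in the Sostdc1/Wnt16 cluster, Crabp1 and Cyp26b1 in the Rprm/Dsc3 cluster and Crabp2 in the distal glans. By the DTA- samples alone, Adh7 is higher in the Vsnl1/Iyd cluster. Cyp26a1, with no UMI, is not drawn.

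The genes differed in where they were read (see the plot of levels by population). Adh7 had its highest level in the Sostdc1/Wnt16 cluster, a mean of 79.3 CPM over the 4 samples, followed by the Irx1/Col7a1 cluster at 64.8, the Vsnl1/Iyd cluster at 64.7, the untested smooth muscle at 49 and the proliferative mesenchyme at 28.1, and these neighbours overlapped between samples. Such means hold both genotypes. In DTA- alone Adh7 averaged 37.8 CPM in the Sostdc1/Wnt16 cluster, against 50.1 in the Irx1/Col7a1 cluster and 70 in the Vsnl1/Iyd cluster. It had 9 UMIs in the distal glans and 2 in the osteogenic population over all 4 samples. Aldh1a2 was highest in the Nefl/Kera cluster at 37.7 CPM, then in the epithelium at 16.3, the periurethra at 11.2 and the Sostdc1/Wnt16 cluster at 11, with overlapping ranges. Aldh1a1 stayed under 10 CPM on average everywhere, with 7.67 in the Nefl/Kera cluster and 4.59 in the corpus cavernosum. Aldh1a3 had 114 CPM in the neural crest glia, 84.9 in the Hand2os1/Prss35 cluster, 84.3 in the Nefl/Kera cluster, 76.7 in the subdermal prepuce and 75.6 in the Sostdc1/Wnt16 cluster, again with overlapping ranges, against 3.17 in the corpus cavernosum. In DTA- alone it averaged 101.5 CPM in the Sostdc1/Wnt16 cluster, against 94.8 in the Nefl/Kera cluster and 77.7 in the Hand2os1/Prss35 cluster.

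Crabp1 was highest in the Rprm/Dsc3 cluster at a mean of 671 CPM and the Irx1/Col7a1 cluster at 583, where its samples overlapped, and it reached 56.4 in the Vsnl1/Iyd cluster. Crabp2 led in the distal glans at 397 CPM, the Rprm/Dsc3 cluster at 392 and the Coch/Meox2 cluster at 315, with overlapping ranges, and had 32.4 in the Irx1/Col7a1 cluster, so the binding proteins shared the Rprm/Dsc3 cluster but not the Irx1/Col7a1 cluster. Cyp26b1 had its highest mean in the Rprm/Dsc3 cluster, where its 4 samples (217 to 242 CPM) lay above every sample of the distal glans (137 to 179), the next by mean. The Irx1/Col7a1 cluster and the proliferative mesenchyme followed at means of 122 and 105. The Irx1/Col7a1 cluster ranged up to 249 CPM, above every Rprm/Dsc3 sample. Its DTA- mean was 187 CPM, against 145 in the distal glans and 220 in the Rprm/Dsc3 cluster. Rarb had 50.9 CPM in the Nefl/Kera cluster, 41.6 in the periurethra and 36.4 in the Vsnl1/Iyd cluster, the highest means among the populations tested, and these ranges overlapped. In DTA- alone Rarb averaged 45 CPM in the Nefl/Kera cluster, 26.4 in the subdermal prepuce, 26.2 in the Vsnl1/Iyd cluster and 16.6 in the periurethra. In macrophages, taken here as a reading of background without a test that they lack these genes, 9 of 223 cells had a Crabp2 UMI (4.04%, exact 95% interval 1.86 to 7.52), 5 had one of Crabp1 and 3 or fewer had one of any other member, at median depths of 5152 to 5760 UMIs per cell. The red blood cell cluster carried 122 CPM of Crabp1 and 123 of Crabp2, genes that red blood cells should lack. General markers of mesenchyme (7 of 7 detected) had summed levels of 5657, 7143, 6716 and 5146 CPM in this cluster, against 4705, 4959, 5319 and 4507 in the distal glans. The Crabp1 and Crabp2 values are therefore not a reading of red blood cells alone, and the source of these transcripts was not tested. No UMI of Cyp26a1 was found in any library, which allows up to 0.0408 CPM in DTA- replicate 1 and up to 0.0591 in the DTA+ libraries (3 counts, counting error only).

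The first question was whether these genes changed in the tissue as a whole. Over all kept cells, 8 of the 9 genes could be tested and none was called by edgeR's quasi-likelihood test, where 0.488% of all genes tested were called. At an unadjusted p under 0.05 there were 4 genes, DESeq2 called 3 (Adh7, Aldh1a2 and Rarb), and edgeR's likelihood ratio test called these and Aldh1a1. The median change of the 8 genes was -0.173 on the log2 scale, against -0.00274 over all genes tested. Summed over the mesenchyme (5930, 7049, 7102 and 8305 cells), the quasi-likelihood test called Adh7 and Rarb higher in DTA+ and no member lower. It called 1.1% of all genes tested there. DESeq2 called Aldh1a2 as well, and the likelihood ratio test called Aldh1a1 and Aldh1a2 as well. A sum over populations also moves with their cell numbers: for example, the Vsnl1/Iyd cluster had 142, 427, 613 and 359 cells, and a shift in cell numbers and a change per cell cannot be told apart in it.

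Adh7 in the mesenchyme had 13.2 and 14.2 CPM in DTA- and 24.2 and 27.8 CPM in DTA+. The groups did not overlap, with a log2 change of 0.86 (SE 0.138, edgeR adjusted p = 0.0485). That call was lost without DTA- replicate 1 (0.81, adjusted p = 0.0869), without DTA- replicate 2 (0.90, 0.0698) and without DTA+ replicate 2 (0.76, 0.13). Rarb had 12.2 and 13.8 CPM in DTA- and 26 and 25.4 in DTA+. The samples of each genotype lay close together and far from the other genotype, with a log2 change of 0.91 (SE 0.135, edgeR adjusted p = 0.0398). Its call was lost without DTA- replicate 1 (0.83, adjusted p = 0.0632) and without DTA- replicate 2 (0.99, 0.0619). Aldh1a2 had 4.93 and 10.6 CPM in DTA- and 1.74 and 2.76 in DTA+, a log2 difference of -1.85 (edgeR adjusted p = 0.0905). Aldh1a1 had 36 and 56 UMIs in DTA- and 12 and 14 in DTA+, a log2 difference of -1.90 (adjusted p = 0.0703). Both were lower in each DTA+ sample than in each DTA- sample, but neither passed the threshold. Markers of red blood cells, all 8 of them detected, moved along in the mesenchyme, with summed levels of 3312 and 2145 CPM in DTA- and 1963 and 332 in DTA+, and those of smooth muscle (8 of 8 detected) with 145 and 227 against 117 and 104. After thinning to 1000 UMIs a cell the changes of Adh7 and Rarb were 0.69 and 0.79 (edgeR adjusted p = 0.0918 and 0.0576). The part of these markers in the changes was not tested.

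**Figure D2:**
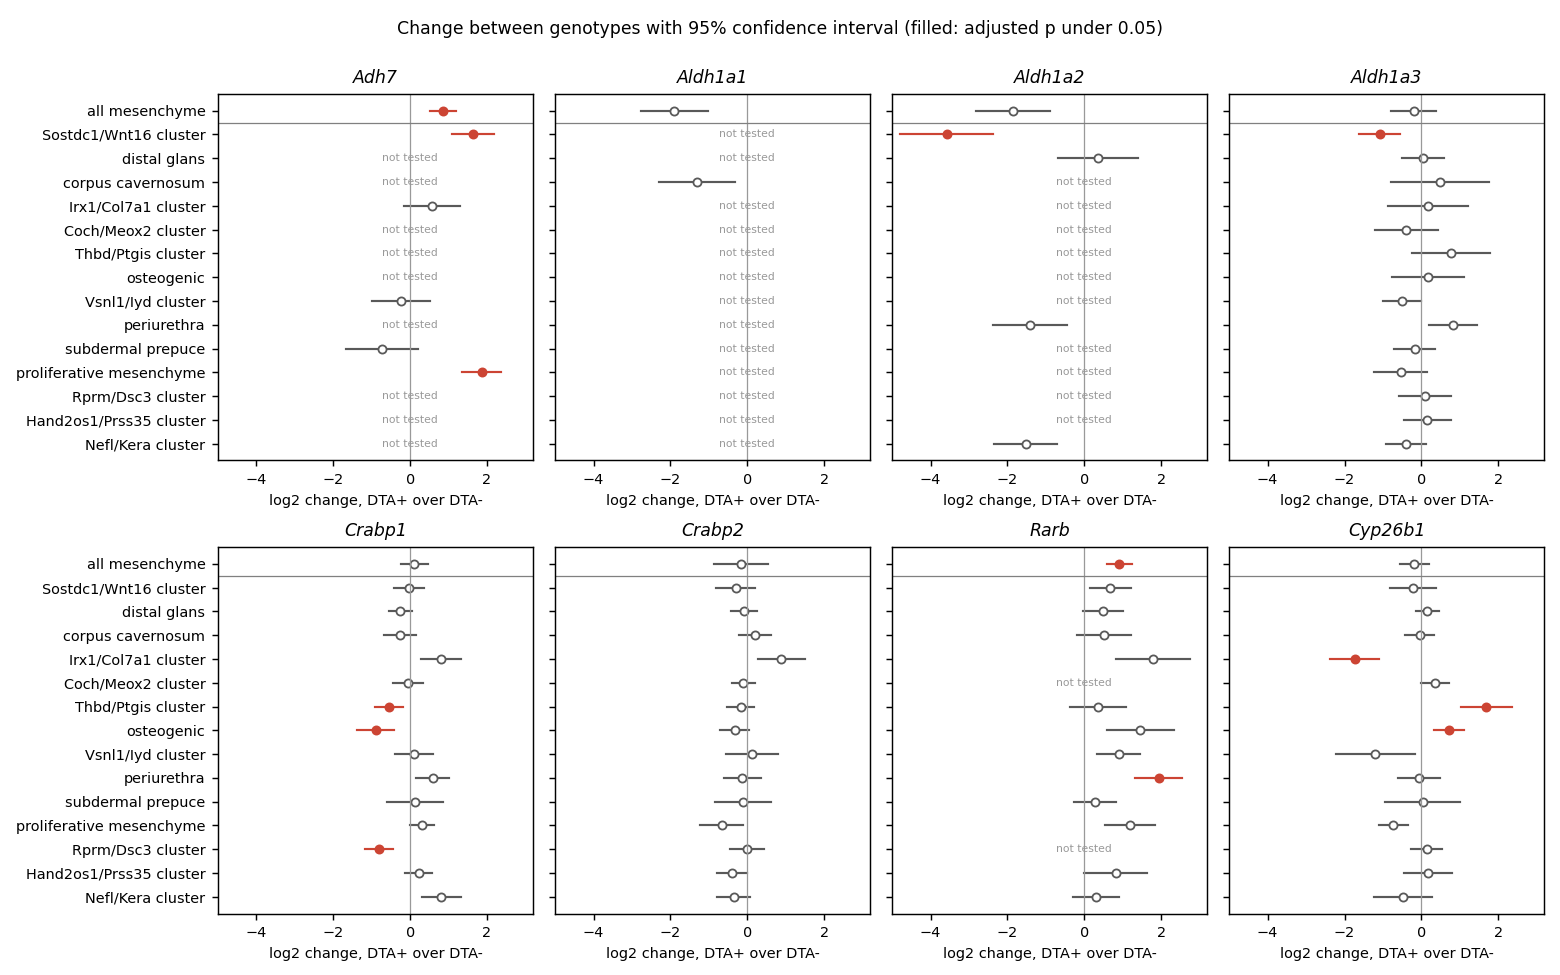
Log2 change of DTA+ over DTA- with its 95% confidence interval for 8 genes, in the summed mesenchyme (above the grey line) and in 14 populations. Filled red symbols mark an adjusted p under 0.05. Rarb lies right of 0 in all 12 populations where it was tested, while the called changes of Crabp1 lie left of 0 and those of Cyp26b1 on both sides.

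The next question was in which populations the genes differed. Of 126 gene-population pairs in the mesenchyme, 78 passed the filter on low counts and 11 were called, 5 higher and 6 lower in DTA+, where 3.84% of all pairs of genes and mesenchymal populations were called. Their median change was 0.063 on the log2 scale. In the Sostdc1/Wnt16 cluster 3 of 7 genes tested were called (2.17% of all genes). In the Thbd/Ptgis cluster (12% of all genes) and the osteogenic population (3.13%), 2 of 5 were called in each. In the Irx1/Col7a1 cluster (0.613%), the periurethra (3.74%) and the proliferative mesenchyme (0.435%), 1 of 6 was called in each, and in the Rprm/Dsc3 cluster (0.767%) 1 of 4. In the other 7 mesenchymal populations no member was called by the quasi-likelihood test (4 to 6 genes tested) or by DESeq2 (3 to 6 genes tested). The quasi-likelihood test called 4.54% of all genes in the distal glans, 6.43% in the corpus cavernosum, 7.21% in the Coch/Meox2 cluster, 5.27% in the Vsnl1/Iyd cluster, 2.56% in the subdermal prepuce, 2.1% in the Hand2os1/Prss35 cluster and 1.5% in the Nefl/Kera cluster. Of the pairs in those 7 populations, 1 in the corpus cavernosum, 3 in the Vsnl1/Iyd cluster and 2 in the Nefl/Kera cluster had an unadjusted p under 0.05, and the likelihood ratio test called Aldh1a1, Rarb and Aldh1a2 in them, 1 gene in each. In the 7 other populations 8 of 63 pairs were tested and none was called by the quasi-likelihood test, DESeq2 or the likelihood ratio test, or had an unadjusted p under 0.05 in the first, where 0.0555% of all pairs were called.

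**Figure D3:**
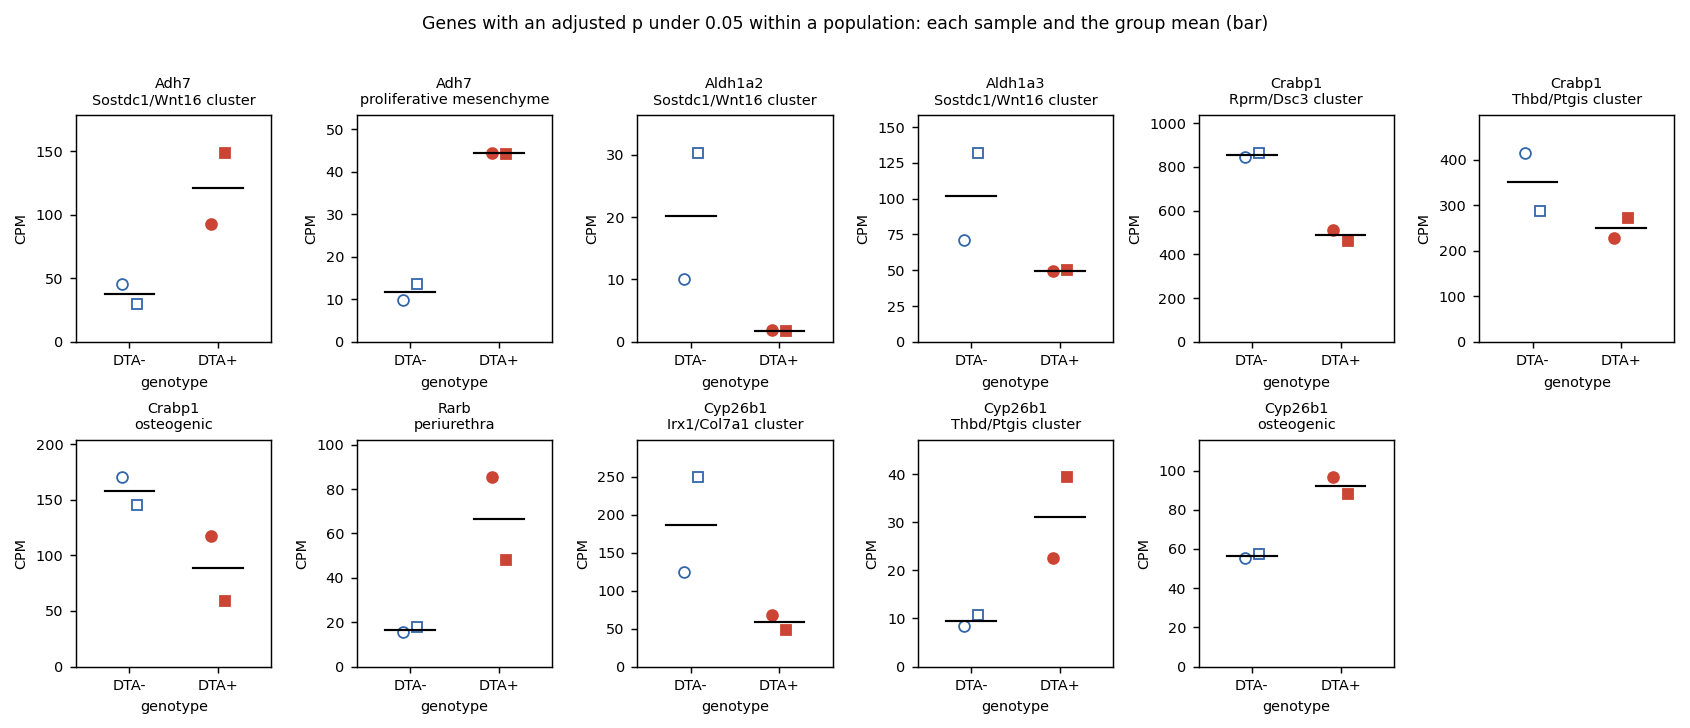
CPM of each sample (circle, replicate 1; square, replicate 2; open, DTA-; filled, DTA+) and the group mean (bar) for the 11 gene-population pairs with an adjusted p under 0.05; each axis starts at 0. In each pair both DTA+ samples lie on the same side of both DTA- samples, 5 pairs higher and 6 lower.

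The Sostdc1/Wnt16 cluster (586, 986, 663 and 675 cells) held called changes of 3 synthesis genes. Adh7, 1 of the enzymes that can carry out the retinol step, had 45.5 and 30.1 CPM in DTA- and 92.8 and 149 in DTA+. It was higher in both DTA+ samples, with a log2 change of 1.63 (SE 0.253, edgeR adjusted p = 0.00405), and 17 of 18 alternatives kept the call, which was lost at a coarser clustering (1.01, adjusted p = 0.101). Aldh1a2, the dehydrogenase that makes most retinoic acid in early embryos, went the other way, with 10.1 and 30.3 CPM in DTA- and 1.84 and 1.67 in DTA+, from 31 and 127 UMIs and 5 and 5 UMIs. The DTA- replicates were far apart and both above DTA+, with a log2 change of -3.59 (SE 0.559, edgeR adjusted p = 0.00422), and all 18 alternatives kept the call, with changes from -4.13 to -2.57. UMIs of Aldh1a2 were in 4.44% and 8.62% of DTA- cells and in 0.302% and 0.593% of DTA+ cells, at median depths of 4063 to 5364 UMIs, and in 1.88%, 2.74%, 0.151% and 0.148% after every cell was thinned to 1000 UMIs. The DTA+ shares as counted were below the 0.897% of macrophages, which rests on 2 of 223 cells. Its exact 95% interval, 0.109 to 3.2, is too wide to tell whether the DTA+ shares lay at background. A loss of cells that carried Aldh1a2 and a lower level in the remaining cells cannot be told apart in this cluster. Aldh1a3, another dehydrogenase of the same step, had 70.9 and 132 CPM in DTA- and 49.3 and 50.2 in DTA+. It was lower in both DTA+ samples, with a log2 change of -1.09 (SE 0.245, edgeR adjusted p = 0.0351). DTA- replicate 2 was the highest sample for both dehydrogenases, and without it the change of Aldh1a3 was -0.59 (edgeR adjusted p = 0.0237). The Aldh1a3 call was lost when cells were thinned to 1000 UMIs (-0.83, adjusted p = 0.241) and at a coarser clustering (-0.93, 0.0505). Smooth muscle markers (8 of 8 detected) had summed levels of 224 and 457 CPM in DTA- and 217 and 186 in DTA+ in this cluster, with the same replicate highest. Red blood cell markers were also lower in DTA+ (2109 and 1800 against 978 and 333), as were general prepuce markers (492 and 471 against 407 and 426). Higher in DTA+ were those of the distal glans (1305 and 1616 against 1949 and 1850) and the periurethra (127.5 and 155.5 against 197.3 and 172.7). At a low level, endothelium markers were higher too (22.4 and 20.5 against 30.9 and 27.1). The part of these shifts in the results was not tested.

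Adh7 was also higher in the proliferative mesenchyme, with 9.8 and 13.6 CPM in DTA- and 44.5 and 44.3 in DTA+. The DTA+ samples were nearly equal, and the log2 change was 1.86 (SE 0.23, edgeR adjusted p = 0.00512), kept in 18 of 19 alternatives and lost when cells were thinned to 1000 UMIs (1.43, adjusted p = 0.427). Smooth muscle markers (8 of 8 detected) had summed levels of 110 and 116 CPM in DTA- and 57.9 and 61.1 in DTA+ in this population, and periurethra markers (7 of 7 detected) 149 and 213 against 260 and 302. Their part in the result was not tested. In the Irx1/Col7a1 cluster Adh7 had 60 and 40.2 CPM in DTA- and 46.9 and 112 in DTA+, in the Vsnl1/Iyd cluster 92.1 and 47.9 against 38.4 and 80.4, and in the subdermal prepuce 12.5 and 8.52 against 6.72 and 5.83. None of these passed the test, with 95% intervals of the log2 change from -0.17 to 1.28, from -0.99 to 0.53 and from -1.68 to 0.21. Aldh1a2 was tested in 3 more populations. It had 32.1 and 79.3 CPM in DTA- and 26.1 and 13.3 in DTA+ in the Nefl/Kera cluster (log2 difference -1.53, edgeR adjusted p = 0.052), and 9.81 and 23 against 4.68 and 7.17 in the periurethra (-1.42, adjusted p = 0.114). In the distal glans it had 17, 11, 6 and 38 UMIs, with DTA+ replicate 2 the highest and DTA+ replicate 1 the lowest (0.36, interval -0.68 to 1.39). Over the 14 populations, which come from the same 4 libraries, both DTA+ samples were below both DTA- samples in 11 and above them in none. Aldh1a2 passed the filter on low counts in only 4 of the 14, so most of these orders rest on few UMIs. The osteogenic population, for example, had 2 UMIs over all 4 samples and the Vsnl1/Iyd cluster 5. Aldh1a1, tested in the corpus cavernosum alone, had 16 and 17 UMIs in DTA- and 5 and 10 in DTA+ (-1.32, adjusted p = 0.098). Aldh1a3 was tested in all 14 populations, with 8 positive and 6 negative differences. In the periurethra it had 26 and 43.8 CPM in DTA- and 80.6 and 47.5 in DTA+, a log2 difference of 0.82 (interval 0.20 to 1.43) that did not pass the threshold (edgeR adjusted p = 0.161).

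Crabp1 was lower in DTA+ in 3 populations. In the Rprm/Dsc3 cluster, where it was most abundant, it had 846 and 865 CPM in DTA- and 512 and 462 in DTA+. The replicates of each genotype lay close together, with a log2 change of -0.81 (SE 0.177, edgeR adjusted p = 0.0171). UMIs of Crabp1 were in 76% and 78% of DTA- cells and in 56% and 56.9% of DTA+ cells at median depths of 2722 to 3646 UMIs, and in 43.9%, 48.6%, 36% and 29.8% after thinning to 1000 UMIs, against 2.24% of macrophages. The call was lost without DTA+ replicate 1 (-0.86, adjusted p = 0.129) and without DTA+ replicate 2 (-0.76, 0.268). It was also lost when cells were thinned to 1000 UMIs (-0.75, edgeR adjusted p = 0.335), at a coarser clustering (-0.33, 0.464), with retinoid genes used in the clustering (-0.75, 0.0535) and with genes that differed by genotype left out of it (-0.78, 0.0601), 6 of 18 alternatives in all. Distal glans markers (7 of 7 detected) had summed levels of 2119 and 2070 CPM in DTA- and 2576 and 3016 in DTA+ in this cluster, and their part in the result was not tested. Their rise was not particular to this cluster. They had 1260 and 1112 CPM in DTA- and 1535 and 1903 in DTA+ in the summed mesenchyme, and 2500 and 2184 against 3005 and 3638 in the distal glans itself. In the osteogenic population Crabp1 had 170 and 145 CPM in DTA- and 118 and 59.1 in DTA+. DTA+ replicate 2 was the lowest sample, and the log2 change of -0.90 (SE 0.236, edgeR adjusted p = 0.0424) was -0.42 without it (adjusted p = 0.606) and 0.40 when cells over the upper UMI limit were kept and clustered again, and 7 of 18 alternatives did not keep the call. In the Thbd/Ptgis cluster it had 415 and 288 CPM in DTA- and 227 and 272 in DTA+. The nearest samples of the genotypes were 288 and 272, and the log2 change of -0.55 (SE 0.174, edgeR adjusted p = 0.0349) lost its call in 10 of 18 alternatives, among them without DTA- replicate 1 (-0.25, adjusted p = 0.429), without DTA+ replicate 1 (-0.41, 0.379) and without DTA+ replicate 2 (-0.69, 0.0609).

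Values of Crabp1 above those of DTA- were seen elsewhere. In the Irx1/Col7a1 cluster it had 543 and 283 CPM in DTA- and 747 and 758 in DTA+ (log2 difference 0.80, edgeR adjusted p = 0.258), in the Nefl/Kera cluster 71.5 and 52.9 against 120 and 102 (0.81, adjusted p = 0.134), and in the periurethra 275 and 212 against 313 and 445 (0.59, adjusted p = 0.142). None of these 3 passed the threshold, and Crabp1 had 7 positive and 7 negative differences over the 14 populations. Crabp2 was called in none of its 14 populations by the quasi-likelihood test, DESeq2 or the likelihood ratio test. Of its differences 3 were positive and 11 negative, from -0.67 in the proliferative mesenchyme (269, 182, 102 and 192 CPM, adjusted p = 0.476) to 0.88 in the Irx1/Col7a1 cluster (27.1, 17.2, 34.9 and 50.6 CPM, adjusted p = 0.351). In the distal glans, where it was most abundant, its 465, 342, 333 and 446 CPM gave a log2 difference of -0.09 with an interval from -0.43 to 0.24.

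Rarb, the receptor that retinoic acid is known to induce, showed 1 direction in the populations tested. Its difference was positive in 12 of 12 mesenchymal populations tested, and in 10 of the 14 both DTA+ samples were above both DTA- samples, with none the other way. These populations share the 4 libraries, so they are not independent observations. In the periurethra Rarb had 15.6 and 17.6 CPM in DTA- and 85.2 and 48.1 in DTA+, from 46 and 39 UMIs and 164 and 161 UMIs. Both DTA+ samples were far above the DTA- samples, and the log2 change of 1.93 (SE 0.279, edgeR adjusted p = 0.00226) was called in 18 of 20 alternatives and lost when cells were thinned to 1000 UMIs (1.87, adjusted p = 0.0518) and in the Mup17/Epha3 cells taken alone. UMIs of Rarb were in 6.8% and 6.01% of DTA- cells and in 21.7% and 14.8% of DTA+ cells, at median depths of 3334 to 4928 UMIs, and after thinning to 1000 UMIs in 1.66%, 1.28%, 8.39% and 3.15%. None of 223 macrophages had one, which allows a share of up to 1.35% by the limit of 3 counts and of 1.64% by the exact 95% interval. Markers of the distal glans (7 of 7 detected) were higher along with it in this population, with summed levels of 978 and 886 CPM in DTA- and 1536 and 1565 in DTA+, and those of macrophages (8 of 9 detected) were 14.5 and 17.1 against 7.8 and 9.26. The distal glans markers were also higher in the summed mesenchyme, with 1260 and 1112 CPM against 1535 and 1903. Other sets of markers differed in the periurethra as well. Those of pericytes were 78.8 and 89.8 CPM in DTA- and 105 and 102 in DTA+, and those of endothelium 17.25 and 17.14 against 27.55 and 29.58. Lower in DTA+ were those of the corpus cavernosum (62.9 and 60.5 against 39.5 and 44.8) and of red blood cells (3800 and 2884 against 2763 and 240). The part of these sets of markers in the result was not tested.

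Differences of Rarb that did not pass were 1.78 in the Irx1/Col7a1 cluster (10, 5.39, 16 and 41.1 CPM, edgeR adjusted p = 0.122), 1.46 in the osteogenic population (6.21, 6.53, 13 and 20 CPM, adjusted p = 0.0646), 1.19 in the proliferative mesenchyme (6.27, 7.72, 14.2 and 19.1 CPM, adjusted p = 0.16) and 0.89 in the Vsnl1/Iyd cluster (32.7, 19.8, 45.4 and 47.9 CPM, adjusted p = 0.0764). In each of these the groups did not overlap. The other 7 tested populations gave log2 differences between 0.28 in the subdermal prepuce and 0.82 in the Hand2os1/Prss35 cluster.

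Cyp26b1, the breakdown enzyme detected in this tissue, went both ways. In the Irx1/Col7a1 cluster it had 124 and 249 CPM in DTA- and 67.7 and 48.6 in DTA+. DTA- replicate 2 was the highest sample, and the log2 change of -1.73 (SE 0.297, edgeR adjusted p = 0.0153) was -1.12 without it (adjusted p = 0.252) and -1.54 with the upper UMI limit lifted (adjusted p = 0.174). Red blood cell markers (7 of 8 detected) had summed levels of 3399 and 3945 CPM in DTA- and 1563 and 224 in DTA+ in this cluster, and their part in the result was not tested. UMIs of Cyp26b1 were in 29% and 46.9% of DTA- cells and in 17.3% and 12.8% of DTA+ cells, at median depths of 3998 to 5403 UMIs, and in 11.7%, 19.2%, 5.31% and 4.28% after thinning, against 1.35% of macrophages. In the Thbd/Ptgis cluster it was higher in DTA+, with 8.42 and 10.7 CPM in DTA- and 22.6 and 39.3 in DTA+, from 20, 18, 27 and 63 UMIs. Both DTA+ samples were above both DTA- samples, with a log2 change of 1.69 (SE 0.328, edgeR adjusted p = 0.000674), which was 1.21 without DTA+ replicate 2 (adjusted p = 0.1). The call was also lost with DESeq2 (1.65, adjusted p = 0.0542), at a coarser clustering (0.69, 0.163) and with genes that differed by genotype left out of the clustering (0.68, 0.181). In the osteogenic population it had 55.3 and 57.5 CPM in DTA- and 96.5 and 87.9 in DTA+. The replicates lay close together, with a log2 change of 0.72 (SE 0.189, edgeR adjusted p = 0.044), but 11 of 18 alternatives lost the call, among them without DTA- replicate 1 (0.71, adjusted p = 0.0884), without DTA+ replicate 1 (0.67, 0.256) and without DTA+ replicate 2 (0.79, 0.135). Distal glans markers (7 of 7 detected) moved with both increases, with summed levels of 487 and 434 CPM in DTA- and 859 and 965 in DTA+ in the Thbd/Ptgis cluster, and of 1568 and 1404 against 2306 and 2271 in the osteogenic population. They were also higher in the summed mesenchyme, with 1260 and 1112 CPM against 1535 and 1903, so their rise was not particular to these populations. Osteogenic markers (5 of 6 detected) in the osteogenic population were 619 and 629 CPM in DTA- and 362 and 481 in DTA+. The part of these shifts in the results was not tested.

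Cyp26b1 in the proliferative mesenchyme had 112 and 147 CPM in DTA- and 72.5 and 88.2 in DTA+ (log2 difference -0.73, edgeR adjusted p = 0.119). In the 2 populations with its highest means over all samples, the Rprm/Dsc3 cluster and the distal glans, the log2 differences were 0.13 (interval -0.26 to 0.53) and 0.16 (interval -0.13 to 0.45). Over all 14 populations 7 of its differences were positive and 7 negative.

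Whether a response differed between 1 population and the remaining mesenchyme of the same samples was tested by an interaction term. Of 126 pairs, 112 could be tested and 17 were called, 8 with a more positive and 9 with a more negative response, where 1.5% of all pairs of genes and populations were called. The filter on low counts took a population and the remaining mesenchyme together, so a gene could pass it through the remainder alone. Aldh1a1, with 0 UMIs in the distal glans, the Vsnl1/Iyd cluster and the Rprm/Dsc3 cluster, was still among the 112. Within populations 78 pairs had passed, and the 17 called pairs were among these. Of 8 genes tested in each, 3 were called in the Irx1/Col7a1 cluster (0.606% of all genes) and 3 in the proliferative mesenchyme (1.85%), 2 in the Thbd/Ptgis cluster (3.39%) and 2 in the osteogenic population (1.34%). A single gene was called in the Sostdc1/Wnt16 cluster (0.456%), the distal glans (0.763%), the Coch/Meox2 cluster (2.09%), the Vsnl1/Iyd cluster (2.79%), the periurethra (1.33%), the subdermal prepuce (1.68%) and the Rprm/Dsc3 cluster (0.335%). Cyp26b1 gave 5 of the 17, more positive in the Thbd/Ptgis cluster (log2 difference of the changes 1.91, edgeR adjusted p = 2.22e-06), the osteogenic population and the Coch/Meox2 cluster, and more negative in the Irx1/Col7a1 cluster (-1.66, adjusted p = 0.0269) and the proliferative mesenchyme. Crabp1 gave 4, more negative in the 3 populations where it was called lower and more positive in the Irx1/Col7a1 cluster (0.95, adjusted p = 0.0154). Adh7 was more positive in the proliferative mesenchyme (1.10, adjusted p = 0.00322) and more negative in the Vsnl1/Iyd cluster (-1.24, adjusted p = 0.002) and the subdermal prepuce. Aldh1a3 was more negative in the Sostdc1/Wnt16 cluster and more positive in the periurethra, Crabp2 more negative in the proliferative mesenchyme and more positive in the Irx1/Col7a1 cluster, and Aldh1a2 more positive in the distal glans. In the Sostdc1/Wnt16 cluster the interactions of Adh7 (1.09, edgeR adjusted p = 0.155) and Aldh1a2 (-2.15, 0.114) were not called. The changes of these genes there are therefore not shown to differ from those elsewhere. Rarb was called in none of its 14 interaction tests. Its change in the periurethra exceeded that of the remaining mesenchyme by 1.14 on the log2 scale (SE 0.284, edgeR adjusted p = 0.0852), so the receptor's larger change there is not shown to differ from that elsewhere.

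Both the periurethra and the proliferative mesenchyme were joined from a pair of clusters, and single clusters were also tested; that test was added after the joined values had been seen. Rarb in the Mup17/Epha3 cells of the periurethra had 13.3 and 16.8 CPM in DTA- and 35.8 and 26.1 in DTA+ (log2 difference 0.94, edgeR adjusted p = 0.14). The groups did not overlap, but the change did not pass the threshold. The Mup17/Epha3 cells had 1 of 6 members called (4.03% of all genes), Crabp1 with 173 and 154 CPM in DTA- and 218 and 340 in DTA+ (0.76, adjusted p = 0.0223).

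**Figure D4:**
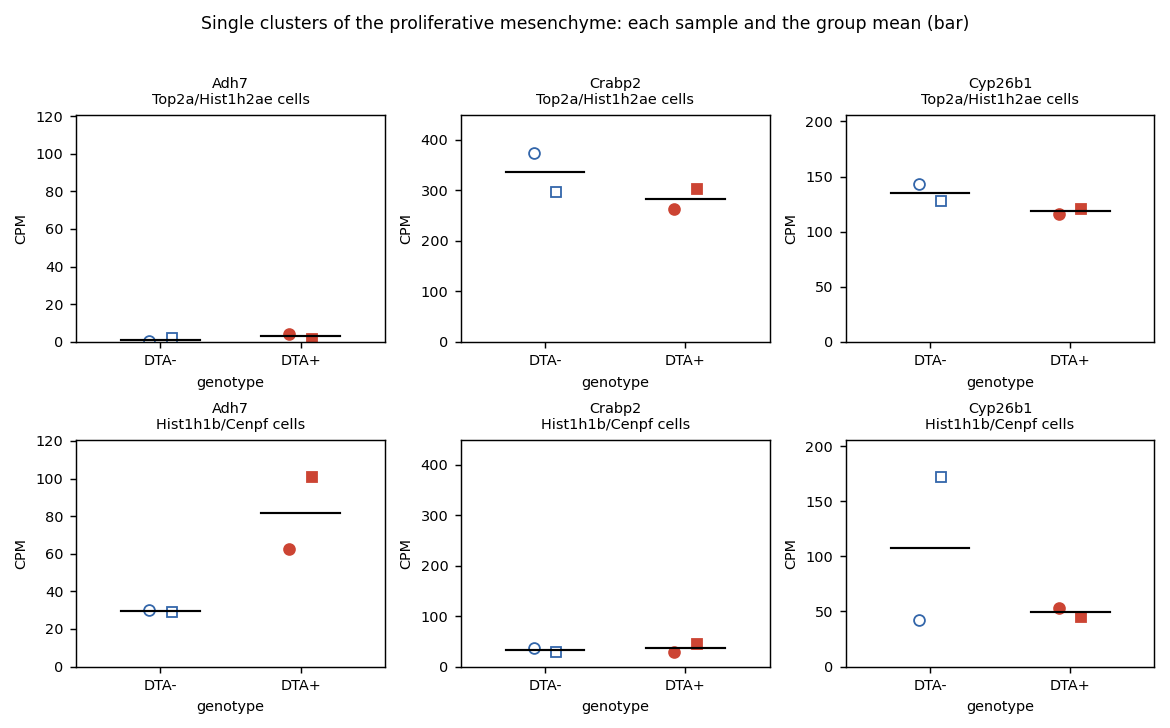
CPM of each sample (circle, replicate 1; square, replicate 2; open, DTA-; filled, DTA+) and the group mean (bar) for Adh7, Crabp2 and Cyp26b1 in the 2 proliferative clusters; each gene has 1 scale, from 0. Adh7 is near 0 in the Top2a/Hist1h2ae cells and Crabp2 is low in the Hist1h1b/Cenpf cells in both genotypes.

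The proliferative clusters had unlike levels of these genes in both genotypes. Adh7 had 1, 4, 3 and 2 UMIs in the Top2a/Hist1h2ae cells, while in the Hist1h1b/Cenpf cells it had 30.1 and 29.1 CPM in DTA- and 62.6 and 100.6 in DTA+ (log2 change 1.40, edgeR adjusted p = 0.0244). Crabp2 was the reverse, with 375, 298, 263 and 304 CPM in the Top2a/Hist1h2ae cells and 37.6, 28.5, 29 and 45.4 in the Hist1h1b/Cenpf cells. Its log2 difference was -0.29 in the Top2a/Hist1h2ae cells (edgeR adjusted p = 0.504) and 0.14 in the Hist1h1b/Cenpf cells (0.99). In the joined population it was -0.67. None of 5 members was called in the first cluster (0.662% of all genes called, 1 member at an unadjusted p under 0.05) and 1 of 6 in the second (0.663%). The first had 351, 453, 163 and 256 cells and the second 146, 313, 298 and 174, so the joined population held a larger share of the second in DTA+ replicate 1, and the Adh7 change within the second cluster was 1.40 where that in the joined population was 1.86. Cyp26b1 had 143, 128, 116 and 121 CPM in the first cluster and 42.6, 172, 52.9 and 45.4 in the second, where DTA- replicate 2 alone was high. Its log2 differences were -0.23 in the first (edgeR adjusted p = 0.617) and -1.23 in the second (0.382). A shift between these clusters and a change per cell cannot be told apart in the joined population.

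Beyond the 9 genes, other retinoid genes were read in the same tests. The quasi-likelihood test called none of them over all cells or in the summed mesenchyme, where it called 0.488% and 1.1% of all genes. In the mesenchymal populations, where 3.84% of all pairs were called, 5 of 21 tested pairs of uptake and storage genes were called, all lower in DTA+, and 7 of 72 pairs of retinol and retinal conversion genes, all higher. Of carriers and nuclear receptors 7 of 112 pairs were called, 1 higher and 6 lower, and of genes known to be induced by retinoic acid 13 of 51, 11 higher and 2 lower. The median changes of these lists were -0.486, 0.0705, 0.122 and 0.463 on the log2 scale, and the breakdown gene Cyp26c1 could not be tested.

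**Figure D5:**
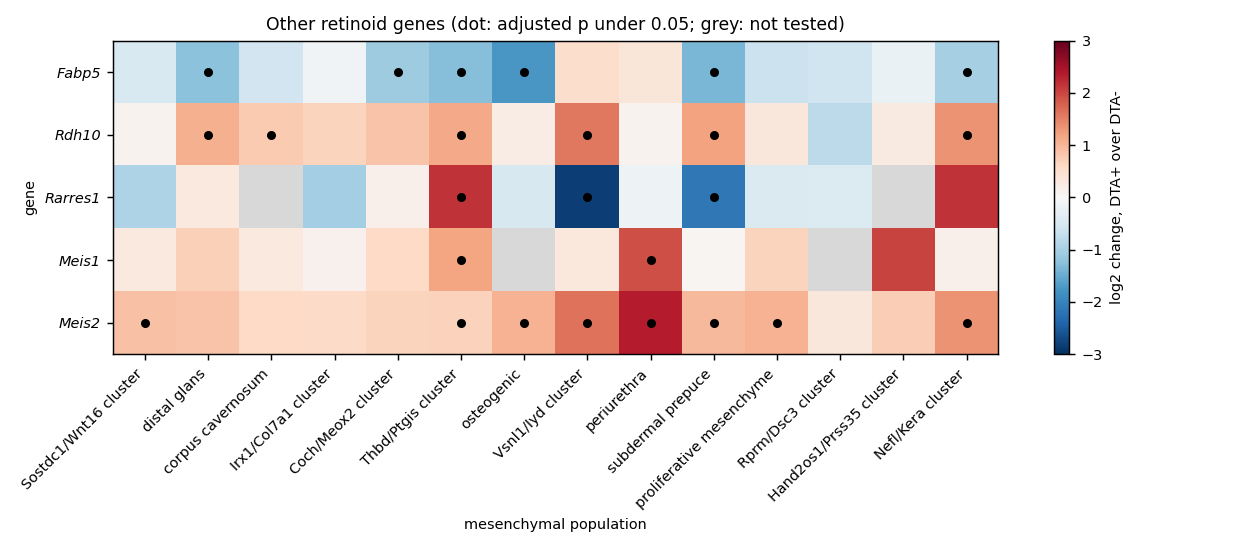
Log2 change of DTA+ over DTA- (colour; grey, not tested) of 5 other retinoid genes called in 2 or more of 14 mesenchymal populations (columns), with a dot where the adjusted p was under 0.05. Fabp5 has dots only in blue fields, Rdh10, Meis1 and Meis2 only in red ones, and Rarres1 in both.

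Fabp5, a fatty acid binding protein that can also carry retinoic acid to another class of nuclear receptors, was lower in 6 populations, with a change of -1.74 in the osteogenic population (717 and 1158 CPM in DTA- and 273 and 280 in DTA+, adjusted p = 3.2e-05). Rdh10, the main embryonic retinol dehydrogenase, was higher in 6, from 0.79 in the corpus cavernosum to 1.59 in the Vsnl1/Iyd cluster (4.46 and 12.5 CPM in DTA- and 34.6 and 29.4 in DTA+, adjusted p = 0.0177). Dhrs3, which turns retinal back into retinol, was higher in the subdermal prepuce (1.89), Rbp4, the secreted retinol carrier, was lower in the corpus cavernosum (-1.38), and Nrip1, a receptor cofactor, was higher in the distal glans (0.55); these 3 were called in 1 population each and are named beyond the rule for the list. Meis2, a homeobox gene that retinoic acid induces in limb buds, was higher in 8 populations, from 0.69 in the Thbd/Ptgis cluster to 2.35 in the periurethra, where it had 68.3 and 83 CPM in DTA- and 581 and 223 in DTA+ (adjusted p = 0.00237). Meis1 was higher in the periurethra (1.94, adjusted p = 0.0356) and the Thbd/Ptgis cluster (1.17, adjusted p = 0.011). Rarres1, named for its response to retinoids, was higher in the Thbd/Ptgis cluster at a low level (2.10 and 1.19 CPM in DTA- and 10.1 and 6.86 in DTA+, log2 change 2.17) but lower in the Vsnl1/Iyd cluster (89.1 and 109 CPM against 13.6 and 16.6, -2.82) and the subdermal prepuce (51.6 and 83.5 against 17.5 and 14.9, -2.14). Some of these calls rested on single libraries. Without DTA- replicate 1 the calls of Meis2 in periurethra (2.22, edgeR adjusted p = 0.0644) and Meis1 in periurethra (1.59, 0.314) were lost, the latter also without DTA- replicate 2 (2.33, 0.0876). Without DTA+ replicate 1 those of Meis1 in Thbd/Ptgis cluster (0.88, edgeR adjusted p = 0.156), Meis2 in Thbd/Ptgis cluster (0.62, 0.176), Fabp5 in Nefl/Kera cluster (-0.46, 0.951) and Rdh10 in corpus cavernosum (0.86, 0.182) were lost, the last also without DTA+ replicate 2 (0.73, 0.286). The call of Rarres1 in Thbd/Ptgis cluster was lost without any 1 of the 4 libraries, with changes from 1.88 to 2.68.

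The pattern of the 3 most abundant members across populations was compared with that of 10516 other genes as a description, by Pearson's correlation of log2(CPM + 1) over 23 populations, which share libraries and depth. Crabp1 (30424 UMIs in kept cells) was most like Prrx2 (r = 0.888), Mab21l1 (0.88) and Cpne5 (0.875). Crabp2 (22506 UMIs) was most like Serinc2 (0.922), Hoxd13 (0.919) and Wdr78 (0.908), and Cyp26b1 (9013 UMIs) like Ntf3 (0.857), 1190005I06Rik (0.839) and Thyn1 (0.831).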

How the data were processed

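Penises of E16.5 male mouse embryos, 2 DTA- and 2 DTA+, were profiled with the 10x Genomics 3′ kit. Per the labels and methods, the authors aligned the reads with Cell Ranger (4.0.0 in the submitters' processing notes) to mm10 and deposited UMI counts per gene and cell, not normalized. Cells outside 1000 to 7500 UMIs, or with mitochondrial counts over 25%, Hba over 25% or Hbb over 50%, were removed, and the rest clustered with Seurat 5.3.0 in R 4.3.3 (2000 variable genes without retinoid genes, 30 components, resolution 0.8). A cluster was named from at least 3 enriched markers of 1 class, with a marker among its 10 leading genes, by limits set after the data were seen. The general prepuce name also required enrichment of Akap12, the study's own marker. Scrublet (scanpy 1.11.5) called no doublet at its automatic threshold, so none was removed in the results given. An assumed rate of 0.8% per 1000 cells would mark 1029 to 1266 cells per library. The lack of calls therefore does not show a lack of doublets. Each population's UMIs were added up within a sample. Genotype was tested by the quasi-likelihood F test of edgeR 4.0.16 after filterByExpr and TMM scaling, with Benjamini-Hochberg adjustment over all genes tested. Standard errors were derived from the F statistic. Interactions compared a population with the remaining mesenchyme, with the sample as a block. The scripts were tested on simulated data.

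The members and gene lists were chosen with earlier results of these data known. All members were described, and other retinoid genes were named where called in 2 or more populations. Alternatives covered DESeq2 1.42.0, the likelihood ratio test, no filter, replicate blocks, thinning to 1000 UMIs, clustering settings, UMI limits, doublet scores and each library left out; the crossed block and the single clusters were added after seeing the data. Intervals and limits of shares cover counting error only. RefSeq promoter windows matched 7 of 9 members. Populations with under 20 cells in a sample were not tested. Some other genes and clusters are not reported here.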

Additional observations from a re-analysis of the deposited data

Results flagged for a closer look

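In 17 pairs of a gene and a mesenchymal population, the DTA+ minus DTA- change differed from that in the remaining mesenchyme of the same samples (edgeR quasi-likelihood interaction term, 2 samples per genotype). Values are differences of log2 changes with their edgeR adjusted p. For Cyp26b1 they were 1.91 in the Thbd/Ptgis cluster (2.22e-06), -0.67 in the proliferative mesenchyme (0.000924), 0.90 in the osteogenic population (0.00748), -1.66 in the Irx1/Col7a1 cluster (0.0269) and 0.61 in the Coch/Meox2 cluster (0.0329). For Crabp1 they were -0.95 in the Rprm/Dsc3 cluster (4.27e-05), -0.70 in the Thbd/Ptgis cluster (0.000187), -1.06 in the osteogenic population (0.000238) and 0.95 in the Irx1/Col7a1 cluster (0.0154). Crabp2 gave -0.60 in the proliferative mesenchyme (9.26e-05) and 1.07 in the Irx1/Col7a1 cluster (0.0195). The interaction test of the joined proliferative mesenchyme cannot tell a change per cell from a shift between its clusters, because it sums both clusters. Within single clusters, Adh7 was called in the Hist1h1b/Cenpf cells (log2 change 1.40, edgeR adjusted p = 0.0244). Crabp2 and Cyp26b1 were called neither in these cells nor in the Top2a/Hist1h2ae cells. Adh7 gave -1.24 in the Vsnl1/Iyd cluster (0.002), 1.10 in the proliferative mesenchyme (0.00322) and -1.62 in the subdermal prepuce (0.0165). Aldh1a3 gave -1.16 in the Sostdc1/Wnt16 cluster (0.00235) and 1.04 in the periurethra (0.0296), and Aldh1a2 gave 2.47 in the distal glans (0.0337), from 17, 11, 6 and 38 UMIs.

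Of these 17, 8 lost their call without 1 library. Aldh1a2 in the distal glans did so without DTA- replicate 2 (1.88, edgeR adjusted p = 0.524) and DTA+ replicate 2 (1.29, 0.674). Cyp26b1 in the Coch/Meox2 cluster did so without DTA- replicate 1 (0.65, edgeR adjusted p = 0.0738), DTA- replicate 2 (0.57, 0.267) and DTA+ replicate 1 (0.20, 0.872), in the osteogenic population without DTA- replicate 2 (0.82, 0.0908) and DTA+ replicate 1 (0.71, 0.141), and in the proliferative mesenchyme without DTA- replicate 2 (-0.52, 0.056). Crabp1 in the osteogenic population did so without DTA+ replicate 2 (-0.66, edgeR adjusted p = 0.101) and in the Rprm/Dsc3 cluster without DTA- replicate 2 (-0.85, 0.137). Adh7 in the Vsnl1/Iyd cluster did so without DTA+ replicate 1 (-0.80, edgeR adjusted p = 0.111), and in the subdermal prepuce without DTA- replicate 1 (-1.35, 0.404), DTA- replicate 2 (-2.01, 0.168) and DTA+ replicate 2 (-1.40, 0.261).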

How the results depend on the processing

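Over all cells, the count of members called was 0, and it was 4 with no filter on low counts, the likelihood ratio test or the replicate block, 3 with DESeq2, 1 with the highest doublet scores left out and 0 to 1 without single libraries. In the mesenchyme it was 2, and it was 4 with no filter, the likelihood ratio test or the replicate block. With cells thinned to 1000 UMIs it was 1, but Adh7 and Rarb both lost their calls there, so this was another member. At resolution 0.4 it was 1, with the call of Adh7 lost and that of Rarb kept. The count also moved without single libraries. Of gene-population pairs 11 were called, against 21 with no filter, 18 with the likelihood ratio test, 15 with the replicate block, 7 with DESeq2 or with genes that differed by genotype left out of the clustering, 3 after thinning, and 9 to 17 without single libraries. Of interactions 17 were called, against 5 with DESeq2, 7 after thinning and 11 to 21 without single libraries; these already hold the sample as a block. Equal replicate numbers deviated in opposite directions over all cells (r = -0.234) and in the summed mesenchyme (r = -0.261). Within single populations r ran from -0.205 in the proliferative mesenchyme to 0.0479 in the osteogenic population. The crossed pairing, chosen after seeing the data, gave 4, 4 and 19 calls.

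With the upper UMI limit lifted, Crabp1 in osteogenic cells reversed to 0.40 (its interaction to 0.18) and Rdh10 in subdermal prepuce to -0.02487. Of 506 alternative values of the members, 392 stayed past the threshold and 2 reversed; of 575 for other retinoid genes, 475 did and 1 reversed. The causes were not tested. Low UMI counts limit Aldh1a1, Aldh1a2 and, outside a few populations, Adh7. The single clusters were not refitted without single libraries.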
